A study of Mus musculus with 9 samples.

Results

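Cd24a, Prom1, Cd44 and Epcam encode cell surface proteins that are widely used to recognise and sort progenitor cells. They were taken by symbol from a table of 55385 mouse genes, in which each of the 4 symbols names 1 row, and all 4 passed the filter on low counts that left 15519 genes to test. The libraries came from kidney cells of male mice, 9 to 12 weeks old and 25 to 30 g in weight, sorted for the red fluorescent protein tdTomato from cortex and outer medulla. The 3 uninjured libraries were from Slc34a1IRES-CreERT2/+:R26RtdT/+ mice given tamoxifen, in which Cre follows a phosphate transporter gene of the proximal tubule. The other libraries were from Sox9IRES-CreERT2/+:R26RtdT/+ mice after ischemia-reperfusion injury (IRI) of both kidneys, in which Cre follows the gene of a transcription factor of progenitor and injured epithelium. Cells of the 3 Sox9 48 h libraries were marked by tamoxifen at the time of injury and collected 48 h later. Those of the 3 Sox9 d14 libraries were marked on days 10 and 12 and collected on day 14. All groups carried the R26RtdT reporter and received tamoxifen. The Cre driver, the injury and the tamoxifen schedule differed together between uninjured and injured mice, and the schedule also differed between 48 h and d14, so that their effects cannot be told apart. A tdTomato mark is permanent, so a sorted cell need not have expressed the driver gene when it was collected.

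CD24 is a small, heavily glycosylated protein held in the membrane by a lipid anchor. Prominin-1 (CD133), the product of Prom1, spans the membrane several times and sits in microvilli and other protrusions. CD44 is the main receptor for hyaluronan, and EpCAM is a homophilic adhesion protein of simple epithelia that is abundant in the collecting duct and distal nephron and low in the mature proximal tubule. In human kidney, CD24 and CD133 together mark parietal epithelial and scattered tubular cells that have been described as progenitor-like, and CD44 is known to appear on activated parietal and injured tubular cells. None of the 4 proteins is restricted to progenitors: CD24 and CD44 are also found on leukocytes, and mouse Prom1 is found in proximal tubule.

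Cd24a (ENSMUSG00000047139.9) lies at chr10:43578284-43584265 on the plus strand of GRCm38, Prom1 (ENSMUSG00000029086.15) at chr5:43993620-44102032 on the minus strand, Cd44 (ENSMUSG00000005087.17) at chr2:102811141-102901665 on the minus strand, and Epcam (ENSMUSG00000045394.9) at chr17:87635979-87651129 on the plus strand. All 4 are annotated as protein-coding in GENCODE M21. Prom1 has 12 coding transcripts and Cd44 has 8, and counts per gene do not separate them, so the standard and variant forms of CD44 could not be distinguished. Cd24a has 2 processed pseudogenes with an alignment of at least 200 bases at 90% identity or more, Gm15352 and Gm6212, and both were at 0 counts in every library. An antisense gene at the start of Prom1, Gm16401, held 148 counts over all libraries, 0.444% of the 33318 counts of Prom1.

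The 250 bases before the start of Cd44 and Epcam are shown because these genes were the least abundant members in uninjured cells and both rose after injury. They are RefSeq sequence of GRCm38.p6 at chr2:102901666-102901915 (minus strand) and chr17:87635729-87635978 (plus strand), written along the gene's own strand and ending at the base before the start. Capitals mark a match to a searched motif.
Cd44: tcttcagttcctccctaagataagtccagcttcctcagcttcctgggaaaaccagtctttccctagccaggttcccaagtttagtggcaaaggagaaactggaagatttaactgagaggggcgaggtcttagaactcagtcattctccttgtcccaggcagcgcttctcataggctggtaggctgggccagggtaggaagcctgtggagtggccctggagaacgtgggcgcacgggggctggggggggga
Epcam: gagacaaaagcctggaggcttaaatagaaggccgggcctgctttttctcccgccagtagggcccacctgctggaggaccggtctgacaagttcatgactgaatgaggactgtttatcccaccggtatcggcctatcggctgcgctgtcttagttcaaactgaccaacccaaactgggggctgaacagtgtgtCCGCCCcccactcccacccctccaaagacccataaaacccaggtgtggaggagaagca
The motifs, searched on both strands, were AACAAT for SOX factors, ACAAAG (shared by SOX and TCF/LEF factors), TGANTCA for AP-1, GGAATG for TEAD, TATAAA for the TATA box, GGGCGG for the GC box and CCAAT for the CCAAT box. The NF-kB motif, GGGA and CC with any 4 bases between them, was searched as well. The Epcam window held 1 match, a GC box on the opposite strand 58 to 53 bases before the start, and the Cd44 window held none. Prom1 has windows for 2 starts, not printed here: the outer held an AP-1, a GC box and a CCAAT match and the inner an AP-1 match. RefSeq windows were matched for 3 of 4 members; Cd24a was not among them. Among 32851 mouse promoter windows of the same length, a GC box was present in 32.7%, the SOX motif in 9.42%, the motif shared by SOX and TCF/LEF in 16.5%, AP-1 in 6.75%, NF-kB in 17.6%, TEAD in 12.6%, a TATA box in 12.4% and a CCAAT box in 33.8%. Both windows were 56.4% GC, and the median window was 52.4%. These matches describe the letters in the window and were not tested for binding.

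Total counts per library were 31585507 to 51631204 in uninjured, 8036054 to 23794029 at 48 h and 19239354 to 30414758 at d14, the lowest in Sox9 48 h replicate 2. Mitochondrially encoded genes took 25.1% to 29.2% of counts in uninjured, 32.7% to 39.2% at 48 h and 15.2% to 25.2% at d14. Both depth and mitochondrial share thus differed between groups. Levels are given in CPM, counts relative to a library size corrected by TMM, an estimate of composition between libraries whose factors were 0.846 to 0.912 in uninjured and 48 h libraries and 1.21 to 1.48 at d14. Scaling by library size alone moved the typical gene: its median log2 fold change went from 0.06 to 0.626 for d14 against uninjured and from 0.055 to 0.629 for d14 against 48 h, and the share of higher genes among those called rose from 54.8% to 83.8% and from 50.7% to 87.9%. Sox9, on which the Sox9 groups were selected, was at 0.274 ± 0.318 CPM (SD, n = 3 here and throughout) in uninjured, 14.9 ± 7.28 CPM at 48 h and 33.2 ± 5.07 CPM at d14. Slc34a1, the driver of the uninjured group, was at 4800, 4630 and 4810 CPM in uninjured libraries and 994, 1620 and 1650 CPM at d14; at 48 h it was uneven, at 4400, 1150 and 1900 CPM in replicates 1, 2 and 3. In bulk libraries such as these, fewer cells of a type and less RNA per cell cannot be told apart.

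In the early comparison, of 48 h with uninjured cells, Cd24a, Cd44 and Epcam rose 15-fold or more and Prom1 was not called. These 3 of 4 members were called, all higher, where 29.1% of all tested genes were called, 17.4% higher and 11.7% lower. A gene was called at an adjusted p under 0.05 in edgeR's quasi-likelihood test, with Benjamini-Hochberg adjustment over all tested genes, and errors of log2 fold changes are standard errors.

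Cd24a, a ligand for selectins and sialic acid-binding lectins, had the steadiest uninjured level of the 4. It stood at 7.75, 8.78 and 8.73 CPM in uninjured replicates 1 to 3, at 247, 221 and 283 CPM at 48 h, and at 703, 414 and 504 CPM at d14. No library of one group overlapped another group, and d14 replicate 1 was the highest. The log2 fold change was 4.90 ± 0.21 at 48 h against uninjured (29.8-fold, 95% interval 21.5 to 41.2, adjusted p = 3.47e-07). From 48 h to d14 it rose again by 1.11 ± 0.18 (2.16-fold, 1.63 to 2.85, adjusted p = 0.00109), and against uninjured the d14 value was 6.0 ± 0.22 (64.2-fold, 45.6 to 90.4, adjusted p = 1.93e-08).

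Epcam, the epithelial adhesion gene, rose at both steps. Uninjured libraries held 3.39, 2.91 and 5.20 CPM, 48 h libraries 53.1, 58.5 and 62.4 CPM, and d14 libraries 226, 200 and 257 CPM. The 3 groups did not overlap. The rise was 3.91 ± 0.21 on the log2 scale at 48 h (15-fold, 10.9 to 20.7, adjusted p = 8.03e-07) and 5.88 ± 0.23 at d14 (59.0-fold, 41.9 to 83.2, adjusted p = 2.23e-08). The step from 48 h to d14 was 1.97 ± 0.19 (3.92-fold, 2.95 to 5.22, adjusted p = 4.91e-05).

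Cd44, the hyaluronan receptor, was close to absent in uninjured cells, with 21, 13 and 43 counts in replicates 1 to 3. Those counts correspond to 0.456, 0.456 and 1.09 CPM, against 18.3, 16.1 and 36.1 CPM at 48 h and 25.2, 50.9 and 30.8 CPM at d14. Every injured library was above every uninjured one, and the 48 h and d14 ranges overlapped. Its log2 fold change was 5.13 ± 0.49 at 48 h (35.1-fold, 16.3 to 75.4, adjusted p = 7.71e-05) and 5.71 ± 0.50 at d14 (52.4-fold, 24.2 to 114, adjusted p = 1.23e-05). Between 48 h and d14 the change of 0.58 ± 0.39 (1.50-fold, 0.82 to 2.73) was not called (adjusted p = 0.283), and scaling by library size alone made it 1.11 ± 0.38 with an adjusted p of 0.0316.

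Prom1, the gene of CD133, was already expressed in uninjured proximal tubule cells and was the member not called at 48 h. Its level was 72.3, 120 and 99.2 CPM in uninjured libraries, 82.5, 81.8 and 81.5 CPM at 48 h, and 227, 167 and 223 CPM at d14. The 48 h libraries were nearly equal and lay inside the uninjured range, whereas every d14 library was above both groups. At 48 h the log2 fold change of -0.25 ± 0.18 was not called (0.844-fold, 0.642 to 1.11, adjusted p = 0.338). At d14 Prom1 rose by 1.08 ± 0.18 against uninjured (2.12-fold, 1.61 to 2.78, adjusted p = 0.000498) and by 1.33 ± 0.18 against 48 h (2.51-fold, 1.90 to 3.31, adjusted p = 0.000365).

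**Figure D1:**
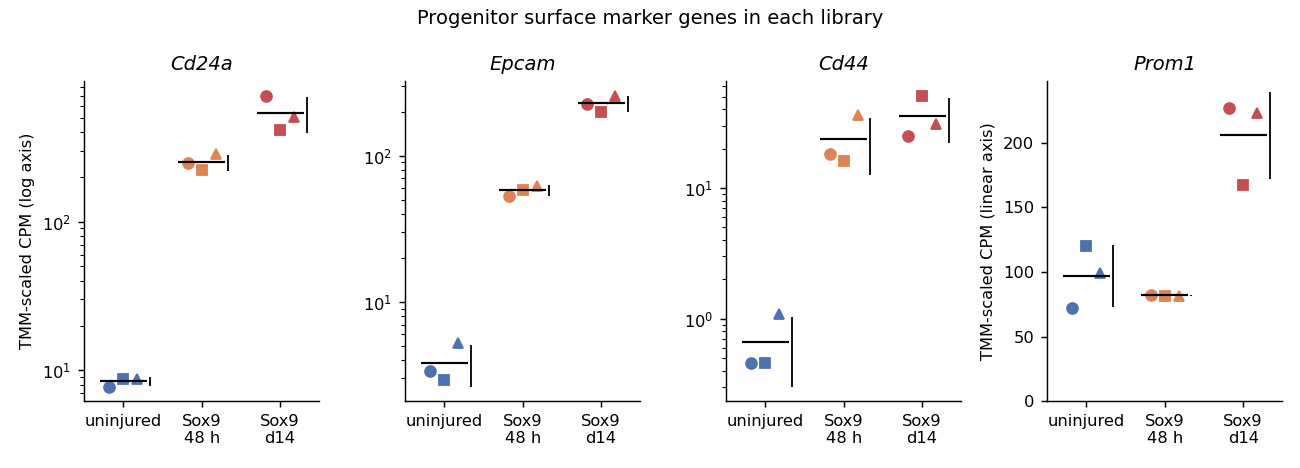
Level of Cd24a, Prom1, Cd44 and Epcam in CPM in each of the 9 libraries, by group; circle, square and triangle are replicates 1, 2 and 3, the black line is the mean and the side bar the SD. The axis is logarithmic for Cd24a, Cd44 and Epcam and linear from 0 for Prom1, whose 48 h libraries, at 81.5 to 82.5 CPM, lie within its uninjured range.

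By d14 all 4 members were called higher than in uninjured cells, where 45.8% of tested genes were called, 25.1% higher and 20.7% lower. From 48 h to d14, 3 of 4 were called, all higher, where 33.1% of tested genes were called, 16.8% higher and 16.3% lower. At 48 h, 1.63% of tested genes had a larger log2 fold change than Cd44, 1.90% than Cd24a, 3.58% than Epcam and 67.9% than Prom1. At d14 against uninjured the shares were 2.10% for Cd24a, 2.24% for Epcam, 2.48% for Cd44 and 22.1% for Prom1. The median log2 fold change of all tested genes was 0.02 at 48 h, 0.06 at d14 against uninjured and 0.055 at d14 against 48 h. The 48 h and d14 comparisons share the uninjured libraries.

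**Figure D2:**
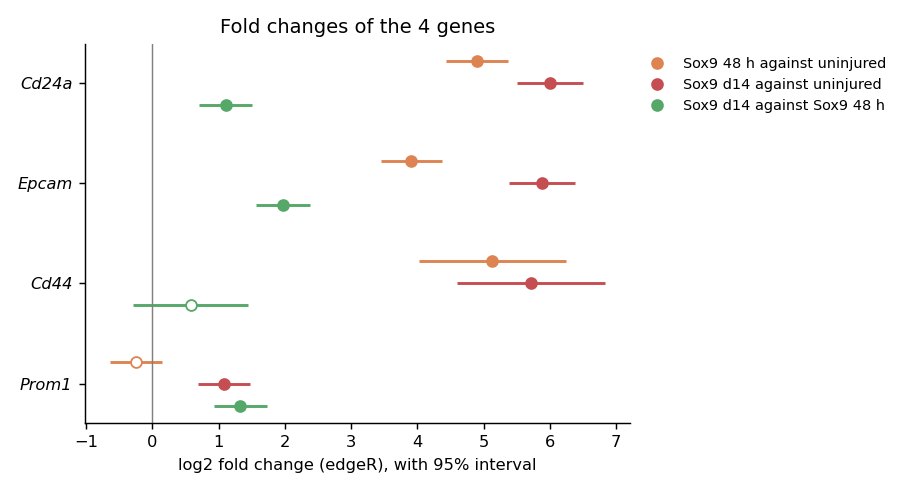
Log2 fold change of each member in the 3 comparisons, with its 95% interval; open circles were not called. Prom1 at 48 h against uninjured (-0.25) and Cd44 at d14 against 48 h (0.58) are the values that were not called.

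Per kilobase of exon, the order of levels changed once. In uninjured cells Prom1 was highest at 13.5 ± 3.31 CPM per kb, followed by Cd24a at 3.26 ± 0.225, Epcam at 1.75 ± 0.550 and Cd44 at 0.0985 ± 0.0541 CPM per kb. At 48 h the order was Cd24a at 97.1 ± 12.2, Epcam at 26.4 ± 2.11, Prom1 at 11.4 (range 11.4 to 11.5) and Cd44 at 3.47 ± 1.62 CPM per kb. At d14 it was the same, with Cd24a at 209 ± 57.3, Epcam at 104 ± 13, Prom1 at 28.7 ± 4.65 and Cd44 at 5.26 ± 1.99 CPM per kb. Neighbours in these orders did not overlap between libraries in any group, and the order was the same per kilobase of the longest coding transcript.

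Ratios of counts inside a library do not depend on scaling between libraries. There were 1.68 to 3.01 Cd24a counts per Epcam count in uninjured libraries, 3.79 to 4.65 at 48 h and 1.96 to 3.11 at d14, so 48 h stood above both other groups. Cd44 counts per Epcam count showed the same order, with 0.135 to 0.210 in uninjured, 0.275 to 0.579 at 48 h and 0.111 to 0.254 at d14. Prom1 counts per Epcam count were 19.1 to 41.2 in uninjured libraries, 1.31 to 1.55 at 48 h and 0.833 to 1.01 at d14, with no overlap at any step. Cd24a counts per Cd44 count overlapped in every comparison. With 3 libraries a group the exact two-sided permutation test cannot go below p = 0.1, which each non-overlapping pair of groups reached; over the 18 comparisons made, the adjusted p was 0.164, so none of these ratios passed the threshold.

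**Figure D3:**
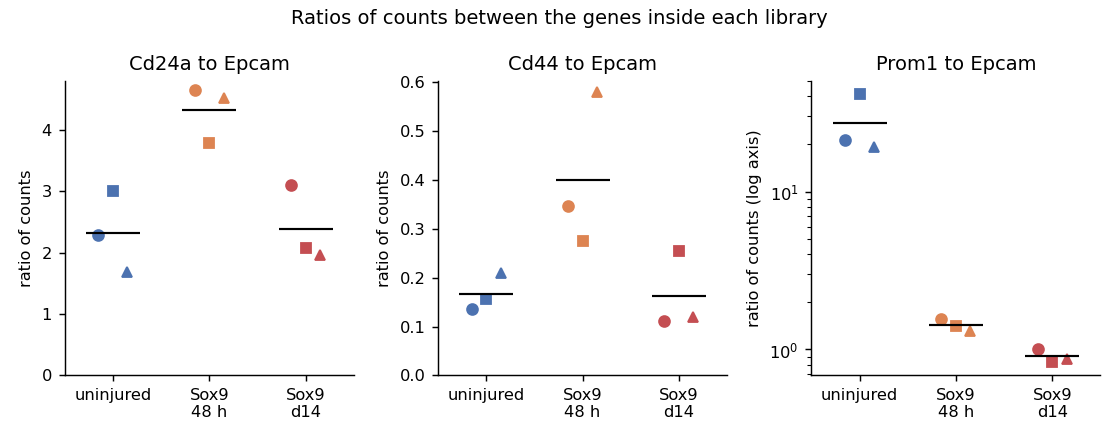
Ratio of the counts of Cd24a, Cd44 and Prom1 to those of Epcam within each library, by group, on a linear axis from 0 for Cd24a and Cd44 and a logarithmic axis for Prom1; circle, square and triangle are replicates 1, 2 and 3 and the line is the mean. Cd24a to Epcam is highest at 48 h (3.79 to 4.65), and Prom1 to Epcam is lower in each later group.

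The named partners of each member were described next, beginning with paralogs. Calls in the lists that follow are to be read against the shares of all tested genes called in either direction. These were 29.1% at 48 h, 45.8% at d14 against uninjured and 33.1% from 48 h to d14. No list was tested as a set. Prom2, the paralog of Prom1, was at 1.56, 1.79 and 0.939 CPM in uninjured libraries, 10.5, 10.2 and 5.16 CPM at 48 h and 30.1, 50.5 and 61.7 CPM at d14. The 3 groups did not overlap, and it was called higher at 48 h (log2 fold change 2.57 ± 0.38, adjusted p = 0.000799), where Prom1 was not; the difference between the paralogs was not tested. It rose further by 2.48 ± 0.35 from 48 h to d14 (adjusted p = 0.000633). Lyve1, a CD44 paralog of lymphatic vessels, had 1 count in all libraries and was not tested.

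Of 15 genes for EpCAM's binding partners, the proteases that cut it and genes known to respond to it, 9 were called higher and 1 lower at 48 h, with a median log2 fold change of 0.72. At d14 10 were higher and 1 lower, with a median of 1.26 (2 lower without 48 h replicate 1). Of all tested genes, 29.1% were called at 48 h and 45.8% at d14. St14, a membrane protease known to cut EpCAM and claudin-7, was at 3.58, 2.67 and 2.59 CPM in uninjured, 60.4, 62.4 and 80.3 CPM at 48 h and 242, 170 and 245 CPM at d14. Cldn7, a tight junction protein that binds EpCAM, rose by 4.44 ± 0.25 at 48 h and 5.85 ± 0.26 at d14. Cd9, a tetraspanin of the same complexes, rose by 3.05 ± 0.17 and 3.97 ± 0.18. Spint2, an inhibitor of St14, rose by 0.45 ± 0.13 at 48 h and by 1.42 ± 0.13 at d14. Its 48 h call was lost without uninjured replicate 2 or 3 or 48 h replicate 3. It was also lost with library size alone and with the replicate number added to the fit. Prss8, a protease that works with St14, was the gene called lower, with log2 fold changes of -0.54 ± 0.12 at 48 h and -1.19 ± 0.12 at d14. From 48 h to d14, 8 were higher and 1 lower, with a median of 0.62 (2 lower without 48 h replicate 2), where 33.1% of all tested genes were called. Myc and Ccnd1, which are known to respond to the cleaved EpCAM tail, were not called in any comparison. Myc was close to the threshold, at 1.35 ± 0.48 at 48 h (adjusted p = 0.0607) and 1.26 ± 0.48 at d14 (adjusted p = 0.0525). Ccnd1 went the other way, at -0.60 ± 0.31 (adjusted p = 0.18) and -0.72 ± 0.31 (adjusted p = 0.0821).

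Among 9 tested genes for CD44's ligands and for hyaluronan turnover, 4 were higher and none lower at 48 h (1 lower without 48 h replicate 2). Their median log2 fold change was 3.30, and 29.1% of all tested genes were called at 48 h. Spp1, which encodes the CD44 ligand osteopontin, was at 218, 438 and 326 CPM in uninjured libraries, 8270, 12300 and 20400 CPM at 48 h and 8760, 7140 and 9300 CPM at d14. It rose by 5.38 ± 0.40 at 48 h and 4.68 ± 0.39 at d14 against uninjured, and the d14 change against 48 h, -0.70 ± 0.33, was not called. Srgn and Vcan, which encode chondroitin sulfate proteoglycans, rose by 3.30 ± 0.26 and 5.39 ± 0.85 at 48 h and fell from 48 h to d14, with log2 fold changes of -3.78 ± 0.27 and -3.39 ± 0.75. The leukocyte marker list moved the same way, with 6 of 6 called higher at 48 h and 6 of 6 lower from 48 h to d14. Cemip, a hyaluronan-degrading protein, was at 0 counts in uninjured libraries and was at least 45.8-fold higher at 48 h and at least 55.4-fold higher at d14, against a floor of 3 counts over the group. At d14 against uninjured, 3 were higher and 1 lower, with a median of 0.54. That was near the share of all tested genes called, 45.8%. Spp1, Cemip and Cemip2 rose and Hyal2, a hyaluronidase, fell by 1.16 ± 0.16. Cemip2 rose by 0.54 ± 0.17, a call lost without uninjured replicate 2 or 3 or d14 replicate 3. From 48 h to d14, 1 was higher and 3 lower, with a median of -0.70 (none higher without d14 replicate 3), where 33.1% of all tested genes were called.

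Among 12 genes that link CD44 to the cytoskeleton, shed it or regulate its splicing, 7 were higher and none lower at 48 h, with a median log2 fold change of 0.47. That count was 3 higher without uninjured replicate 1, uninjured replicate 2 or 48 h replicate 3, and 1 was lower without 48 h replicate 1. At d14 6 were higher and 1 lower, with a median of 0.54. From 48 h to d14 4 were higher and none lower, with a median of 0.23 (1 lower without 48 h replicate 2). The shares of all tested genes called were 29.1% at 48 h and 45.8% at d14. From 48 h to d14 that share was 33.1%, near that of the list. Iqgap1, a scaffold that binds actin and CD44, rose in all 3 comparisons, by 1.96 ± 0.15, 3.04 ± 0.16 and 1.08 ± 0.15. Esrp1, an epithelial splicing regulator that favours variant exons of CD44, rose by 2.39 ± 0.27, 4.85 ± 0.28 and 2.46 ± 0.25 in the same order. Mmp14, a membrane protease that sheds CD44, rose by 2.27 ± 0.27, 4.61 ± 0.28 and 2.34 ± 0.25.

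Among 14 genes for prominin partners and the microvilli in which prominin-1 sits, 2 were higher and 1 lower at 48 h. Their median log2 fold change was -0.13, and the share called was below the 29.1% of all tested genes. At d14 2 were higher and 10 lower against uninjured, with a median of -1.06, where 45.8% of all tested genes were called. The proximal tubule marker list fell with them, with 11 of 11 called lower and a median of -2.37, and its part in these calls was not tested. Pdzk1, a brush border scaffold, fell at d14 with a log2 fold change of -2.19 ± 0.17, as did Vil1, which bundles microvillar actin, at -1.65 ± 0.17, and Eps8, which caps actin filaments, at -1.33 ± 0.12. The 2 higher genes were Prom2 and the cilium gene Arl13b, and 1 was higher without any 1 uninjured library or without d14 replicate 1 or 2. From 48 h to d14, 2 were higher and 9 lower, with a median of -0.82 (1 higher without d14 replicate 1 or 2). In that comparison 33.1% of all tested genes were called. At 48 h the calls were Prom2 and Cdhr2, a microvillar cadherin, higher and Eps8 lower. Without uninjured replicate 1 or 2, or any 1 of the 48 h libraries, 1 was higher; none was lower without uninjured replicate 1 or 3, and 2 were lower without 48 h replicate 2 or d14 replicate 1 or 2.

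Of 6 tested genes for CD24 ligands and the kinases it signals through, 3 were higher and none lower at 48 h. Their median log2 fold change was 1.24, and 29.1% of all tested genes were called in that comparison. At d14 3 were higher and none lower, with a median of 0.60. That was near the share of all tested genes called, 45.8%. The 3 were L1cam, Src and Lyn. Lyn's d14 call (0.71 ± 0.24) was lost without uninjured replicate 1 or 3 or d14 replicate 1 or 2. It was also lost with the replicate number added to the fit. Fgr, not called at d14, was called there without 48 h replicate 2 or 3. L1cam, a neural adhesion protein that binds CD24, was at 2.04, 2.14 and 2.64 CPM in uninjured, 44.2, 30.5 and 30.6 CPM at 48 h and 128, 78.9 and 106 CPM at d14. It rose by 3.95 ± 0.23 at 48 h and 5.51 ± 0.24 at d14, and the groups did not overlap. Lyn and Fgr, kinases abundant in myeloid cells, rose by 1.66 ± 0.25 and 3.46 ± 0.60 at 48 h and fell from 48 h to d14, with log2 fold changes of -0.95 ± 0.24 and -2.23 ± 0.57. In that last comparison 1 was higher and 2 lower, with a median of -0.23, where 33.1% of all tested genes were called. Without 48 h replicate 3, 2 were higher and none lower, and without d14 replicate 3, 1 was lower.

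Other progenitor and stem cell surface genes gave 10 higher and 2 lower of 21 tested at 48 h (median log2 fold change 1.49) and 15 higher and 1 lower at d14 (median 1.68; 2 lower without 48 h replicate 1). The 48 h count was 1 lower when any 1 library was left out. Of all tested genes, 29.1% were called at 48 h and 45.8% at d14. Ncam1, a neural adhesion gene used to mark nephron progenitors in human fetal kidney, rose by 2.5 ± 0.28 at 48 h and 3.88 ± 0.29 at d14. Kit, the stem cell factor receptor, rose by 1.27 ± 0.30 and 2.86 ± 0.31. Lgr4, an R-spondin receptor, fell, with log2 fold changes of -1.12 ± 0.12 at 48 h and -0.77 ± 0.12 at d14; the d14 value was -0.20 and not called with library size alone (adjusted p = 0.182). From 48 h to d14, 8 were higher and 2 lower, with a median of 0.73, where 33.1% of all tested genes were called. The 2 lower genes, Eng and Cd34, are also endothelial; without uninjured replicate 1 or 48 h replicate 1 the count was 1 lower, and without uninjured replicate 3 or any 1 of the d14 libraries it was 0. The higher count was 5 without d14 replicate 3.

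**Figure D4:**
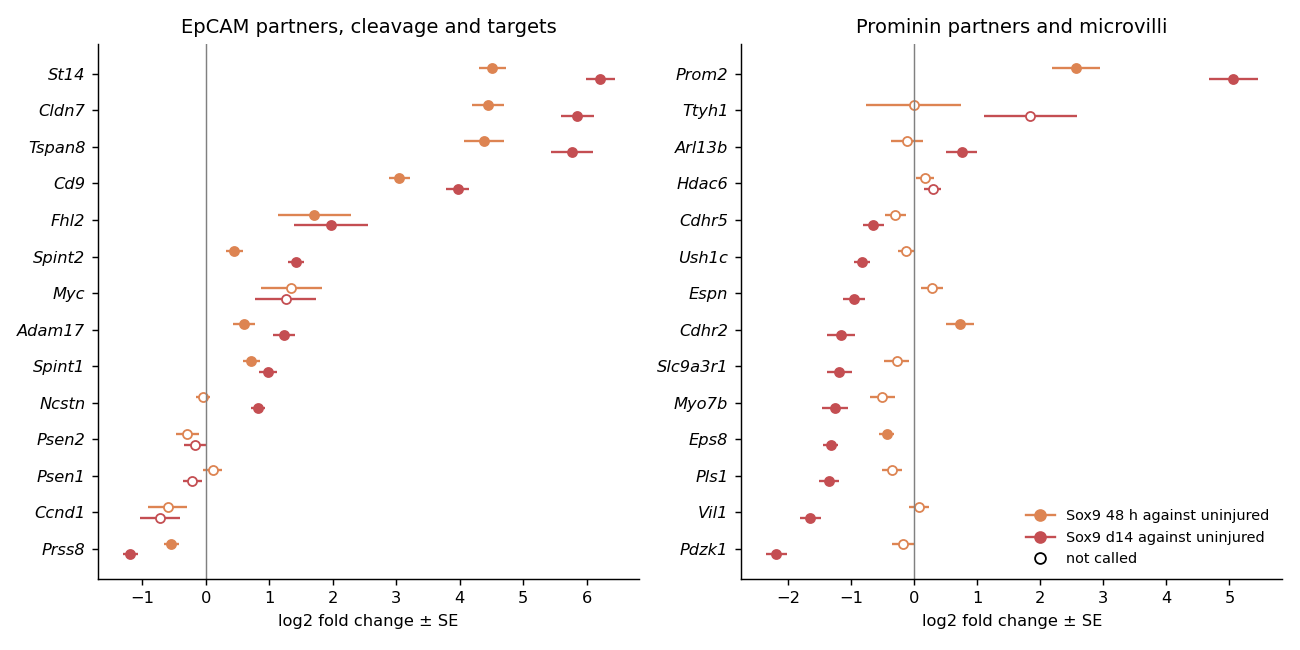
Log2 fold change with its standard error, at 48 h and at d14 against uninjured, of the 14 genes of the prominin and microvilli list and of 14 of the 15 genes of the EpCAM list; open circles were not called. At d14, 10 of the 14 prominin and microvilli genes were called lower, and St14 and Cldn7 are among the EpCAM genes farthest above 0.

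The 5 genes most like each member in log2 CPM over the 9 libraries were ranked by Pearson r among 8538 genes; this is a description, in which the points share libraries and 3 groups. For Cd24a they were Cldn4 (r = 0.998), Clu (0.998), Mal2 (0.997), Cdc42ep1 (0.997) and Pak6 (0.996). For Epcam they included Gsn (0.998), Maged2 (0.997), Sgpp2 (0.997) and Bcam (0.997). Cd44 was most like Ppp1r12a (0.991), Hspb1 (0.988), Rab31 (0.986), Cp (0.984) and Aqp6 (0.984). Pearson r does not depend on the size of a change. Against uninjured, Ppp1r12a rose 1.32-fold at 48 h and 1.37-fold at d14, and Cd44 rose 35.1-fold and 52.4-fold. Prom1 was most like Ubn2 (0.974), Ripk4 (0.971), Fzd6 (0.97), Bag4 (0.969) and Stx6 (0.968). Values over 0.9 were found for 7.21% of genes with Cd24a, 8.91% with Epcam, 5.69% with Cd44 and 1.63% with Prom1. Cldn4, a claudin of the distal nephron and collecting duct, was at 0.782, 1.16 and 1.45 CPM in uninjured, 40.3, 53.3 and 62.0 CPM at 48 h and 154, 90.7 and 104 CPM at d14. Clu, which encodes the secreted chaperone clusterin, was at 19.9 to 23.4 CPM in uninjured and 3380 to 5200 CPM at d14.

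Markers of several other cell types also changed between groups. The proximal tubule list (11 genes) summed to 19600 to 21700 CPM in uninjured libraries, 6670 to 12900 CPM at 48 h and 3380 to 4590 CPM at d14, and 8 of 11 were called lower at 48 h and 11 of 11 at d14. The thick ascending limb list summed to 150 to 217 CPM in uninjured, 756 to 949 CPM at 48 h and 2990 to 5290 CPM at d14, with 5 of 5 called higher against uninjured in both. The distal convoluted and connecting tubule list summed to 179 to 241, 516 to 776 and 3090 to 4400 CPM, with 4 of 6 and 6 of 6 called higher. The principal cell list summed to 59.6 to 81.2, 320 to 379 and 474 to 688 CPM, with 6 of 7 called higher in both. The intercalated cell list summed to 18.8 to 28.5, 81.6 to 116 and 228 to 255 CPM, with 5 of 7 and 6 of 7 called higher, and no marker of these distal lists was at 0 in any group. Thin limb markers summed to 6.95 to 10.1, 68.3 to 108 and 92.6 to 140 CPM, with Fst at 0 counts in uninjured, and 4 of 4 were called higher in both. Parietal epithelial markers summed to 27.2 to 41.7, 37.5 to 95.5 and 61.3 to 95.9 CPM, and 2 of 4 were called higher in both. These were Akap12 (log2 fold changes 3.18 ± 0.56 and 3.78 ± 0.57) and Dkk3 (4.22 ± 0.94 and 4.48 ± 0.94), which averaged 0.124 CPM in uninjured. Cldn1, at a mean of 32.6 CPM in uninjured, made up most of the uninjured sum, and neither it nor Wt1 was called. Podocyte markers summed to 37.3 to 58.4, 45.6 to 152 and 35.6 to 50.2 CPM. Fibroblast and pericyte markers summed to 3.54 to 7.87, 2.16 to 6.9 and 7.37 to 16 CPM; of 7 tested, none was called at 48 h, 3 were called higher at d14 against uninjured (Col1a1, Col3a1 and Dcn) and 2 at d14 against 48 h. T cell markers summed to between 0.878 and 2.93 CPM in all libraries. The part of these cell types in the rise of Cd24a, Epcam and Prom1 was not tested.

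Leukocyte markers moved at 48 h. The leukocyte list summed to 13.6 to 16.6 CPM in uninjured, 63.2 to 197 CPM at 48 h and 15.6 to 28.7 CPM at d14; 6 of 6 were called higher at 48 h and none of 6 at d14 against uninjured. Neutrophil markers summed to 2.8 to 8, 113 to 343 and 3.43 to 5.90 CPM, with Ly6g at 0 counts in uninjured, and 5 of the 5 tested were called higher at 48 h and lower from 48 h to d14. Macrophage markers summed to 74.1 and 58 CPM in uninjured replicates 1 and 3, with replicate 2 above the lowest 48 h library, so that these groups overlapped. They summed to 176, 82.5 and 355 CPM at 48 h and 185, 410 and 239 CPM at d14, and 4 of 11 were called higher at 48 h and 6 of 11 at d14 against uninjured. Among the 48 h libraries, replicate 3 was the highest for Cd44 (36.1 CPM), the leukocyte list (197 CPM), the neutrophil list (343 CPM) and the macrophage list (355 CPM). It was also the highest for Cd24a (283 CPM), Epcam (62.4 CPM) and the intercalated cell (116 CPM), thin limb (108 CPM) and parietal epithelial (95.5 CPM) lists. Prom1 and the proximal tubule, thick ascending limb, distal convoluted and connecting tubule and principal cell lists were highest in other 48 h libraries. Without replicate 3, Cd44 at 48 h was 16.1 to 18.3 CPM and was still called higher. The leukocyte list was still at 99 and 63.2 CPM in the remaining 48 h libraries, so that fit does not remove leukocyte RNA. Among the d14 libraries, replicate 2 was the highest for Cd44 (50.9 CPM), the leukocyte list (28.7 CPM) and the macrophage list (410 CPM). It was also the highest for the endothelial, fibroblast and pericyte, neutrophil, thin limb, parietal epithelial and podocyte lists, and the lowest for Cd24a, Epcam and Prom1. Without replicate 2, Cd44 at d14 was 25.2 to 30.8 CPM and was still called higher than in uninjured cells. Macrophage markers were still at 185 and 239 CPM in the remaining d14 libraries, so that fit does not remove macrophage RNA. Endothelial markers were at 72.4 to 135 CPM in uninjured, 77.3 to 667 CPM at 48 h, where replicate 1 held the 667 CPM, and 26.8 to 56.4 CPM at d14. The part of leukocytes and macrophages in the levels of Cd44, Cd24a, Srgn, Vcan, Lyn and Fgr at 48 h and d14 was not tested.

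**Figure D5:**
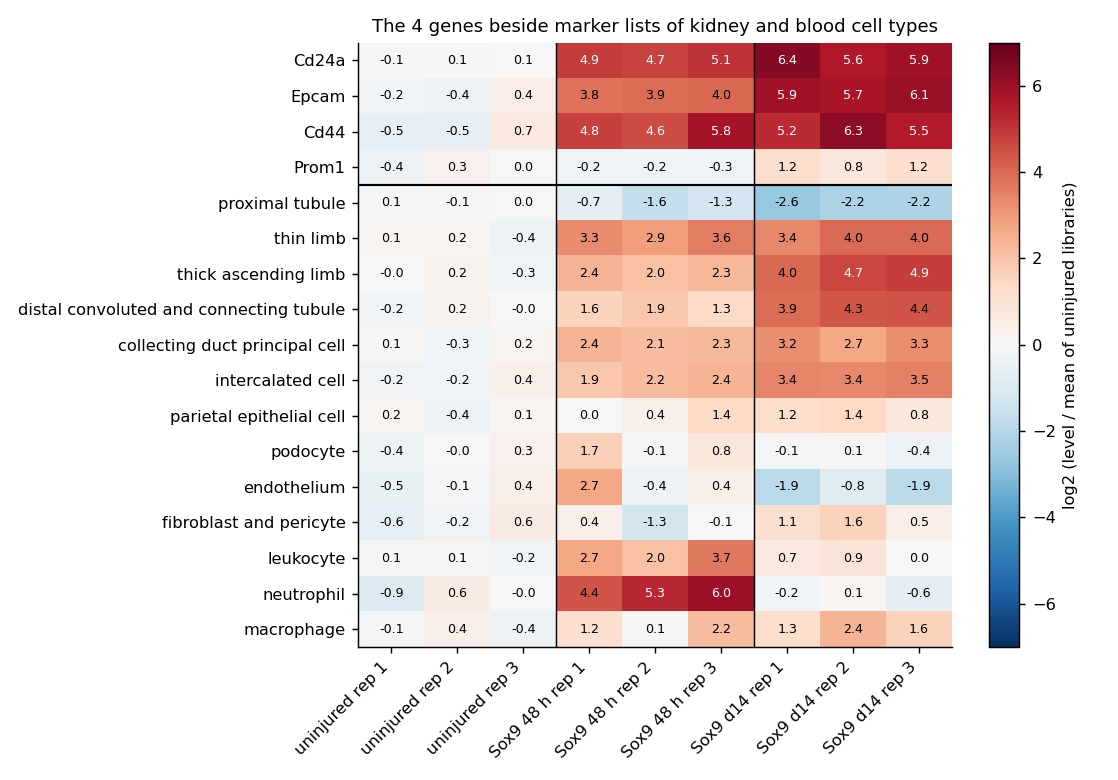
Level of the 4 members and the summed level of 13 cell type marker lists in each library, as log2 of the level over the mean of the uninjured libraries. Cd24a, Cd44 and Epcam and the distal nephron lists are above uninjured in every injured library, and the leukocyte and neutrophil lists are highest at 48 h.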

How the data were processed

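RNA of sorted kidney cells was sequenced after polyA selection (up to 30 ng, strand-specific kit, per the labels' protocols). The table deposited by the authors holds expected counts per gene and library, already whole numbers. STAR 2.6.1, RSEM 1.2.28, bcl2fastq 2.20, R 3.6.3 and DESeq2 1.26.0 are listed, with no roles, per the submitters' processing notes, with builds mm10 and GRCh38; annotation and strand setting: not given in the sources used here. All 92 spike-in rows were at 0 counts and stayed out, and 0 library columns lacked a sample.

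Tests used edgeR 4.0.16 (R 4.3.3) with filterByExpr (minimum count 10, minimum total 15), TMM scaling, a robust quasi-likelihood fit of all 9 libraries with 1 mean per group, and Benjamini-Hochberg adjustment (threshold 0.05). Alternatives used DESeq2 1.42.0 and limma 3.58.1; scipy 1.17.1 gave exact permutation tests and blastn 2.17.0 near copies (GENCODE M21). RSEM divides reads between similar genes. P-values measure the spread between libraries labelled biological replicates. Floors of 3 counts cover counting error only.

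The members, lists and motifs were chosen with earlier results of these data known. Named genes are the members, their paralogs, Sox9 and Slc34a1, up to 4 called, non-overlapping genes per list and comparison by p, and the 5 genes most like each member (mean of at least 10 CPM, Pearson r of log2(CPM + 0.5)). Prss8, Arl13b, Eng, Cd34, Myc and Ccnd1 fall outside that rule and were named after their values were seen. Some genes that the rule names are not reported here.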

Additional observations from a re-analysis of the deposited data

How the results depend on the processing

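Over 10 other settings and the 9 fits that leave out 1 library, every member kept its direction in each comparison. Each also kept its side of the threshold, except that Cd44 at d14 against 48 h was called with library size alone (1.11 ± 0.38, adjusted p = 0.0316). Over all 10 settings that value ran from 0.38 to 1.11, and library size alone gave the highest. Library size alone also gave 7315 genes higher and 1417 lower at d14 against uninjured, and 6812 higher and 934 lower at d14 against 48 h, by omitting the TMM factors. Leaving out 1 library moved the count of genes lower at 48 h to between 1147 and 1995, from 1818; it was 1147 without uninjured replicate 1 and 1208 without uninjured replicate 3, and the cause was not tested.

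With 1 library left out, the log2 fold changes at 48 h against uninjured ran from 4.79 to 4.98 for Cd24a, -0.42 to -0.08 for Prom1, 4.67 to 5.69 for Cd44 and 3.75 to 4.19 for Epcam. At d14 against 48 h they ran from 0.88 to 1.27, 1.25 to 1.46, 0.24 to 1.04 and 1.88 to 2.06 in the same order, with an adjusted p of 0.0612 to 0.696 for Cd44.

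The labels do not say that a replicate number marks a shared animal, litter or day. Same-numbered libraries correlated at -0.161 to 0.0494 in their deviations from group means, and differently numbered ones at -0.067 to 0.13. With 3 libraries a group, whose deviations sum to 0, these values cannot show whether the numbers pair the samples. With the replicate block, the 48 h counts over all genes were 2289 higher and 1529 lower, Cd44 at d14 against 48 h was 0.64 (adjusted p = 0.194), and no member's call changed.

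With library size alone, the prominin and microvilli list had 4 genes higher at d14 against uninjured, and the CD44 linker list had 11 higher and 0 lower. Of the counts over lists, 78 moved by more than 1.5 times and 606 did not. Among named genes, 64 values lost and 29 gained a call, 2814 did neither and 0 reversed. Cd44 had 13 to 43 counts per uninjured library, the fewest of the 4 members.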
